A study of Mus musculus with 8 samples.

Results

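The genes described here belong to the cytotoxic granule programme of lymphocytes, measured in CD4 T cells. They are Gzma, Gzmb, Prf1, Srgn, Serpinb9, Nkg7 and Klrd1, taken by symbol from the annotation of the array. These 7 genes had 9 probe sets annotated to their symbol alone, out of 45101 probe sets on the array and 18193 genes with a symbol of their own. Prf1 and Serpinb9 had 2 probe sets each and the other 5 genes had 1.

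The study measured RNA on 8 Affymetrix arrays, in 4 groups of 2 biological replicates. The groups were IFN-gR1-deficient (KO) cells given db-cAMP, KO cells given vehicle, wild-type (WT) cells given db-cAMP, and WT cells given vehicle. db-cAMP, dibutyryl cyclic AMP, is a form of the second messenger cyclic AMP that enters cells. All cells were CD4+ T cells isolated with autoMACS from spleens of mice aged 8 weeks and stimulated for 15 h with antibodies to CD3 and CD28, and db-cAMP or medium was present during the last 3 h. The receptor was missing in the whole mouse and not only in the culture, so KO cells had also developed without it. The labels do not say whether the 2 replicates of a group came from different mice, so p-values measure the spread between these samples.

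Killer lymphocytes keep granzymes, which are serine proteases, and the pore protein perforin in secretory lysosomes, packed on the proteoglycan serglycin. On contact with a target the granules are released, perforin lets the granzymes into the target, and the granzymes cut proteins that set off cell death. The granules are best known from CD8 T cells and NK cells, and a part of activated CD4 T cells also makes granzyme B. Serpinb9 encodes a serpin that inhibits granzyme B inside the cell that carries it.

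Whether the genes were measurable at all was examined first. A signal is the brightness of a probe set on an array, scaled by the depositors, and signals of different probe sets are not comparable as amounts of RNA. All 9 probe sets lay above the median of their array on more than 1 array, and none fell below it on 7 or 8 arrays, the limit set for calling a probe set near background. A stricter yardstick came from 31 genes not expected in lymphocytes (such as Alb and Ins2), whose 90th percentile lay between 82.1 and 124 on the 8 arrays. The first limit is lenient, since 12 of these 31 genes were not near background by it either. Gzmb, Srgn, Nkg7, Klrd1 and both Serpinb9 probe sets were above that percentile on all 8 arrays. Gzma was above it on 2 arrays, and the Prf1 probe sets 1450335_at and 1451862_a_at on 2 and 0. The yardstick is imperfect, since Mbp, 1 of its genes, had signals of 1553 to 3503. Prss2, also in the list, had 108 to 204 and was above the percentile on all 8 arrays. Without Mbp the highest signal of the list was 224. The plot of signals against this background shows the distance.

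**Figure D1:**
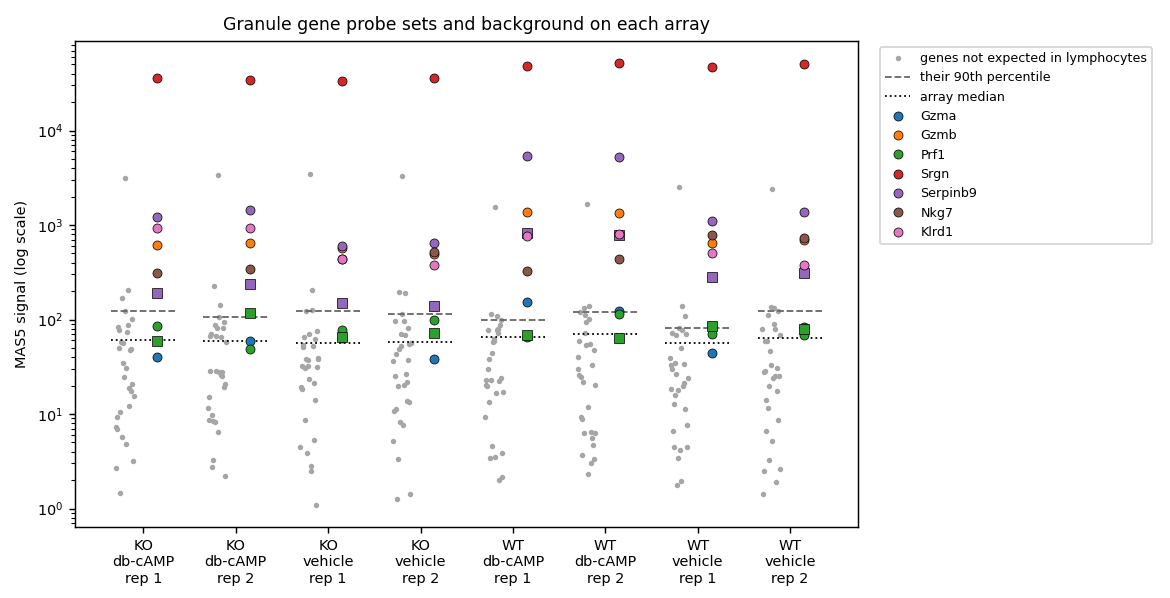
Signal (log scale) of the 9 granule gene probe sets on each of the 8 arrays (circles, the probe set used for the gene; squares, the second probe set of Prf1 and Serpinb9), beside 31 genes not expected in lymphocytes (grey), their 90th percentile (dashed) and the median of the array (dotted). Gzma and Prf1 lie among the grey points on most arrays, and the other 5 genes lie above their 90th percentile on all 8.

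The samples carried the marks of CD4 T cells, and 8 of the 9 measured CD4 T cell markers were above the background percentile on all arrays. Cd4, the co-receptor, had signals of 363 and 408 in KO cells with db-cAMP, 253 and 354 in KO cells with vehicle, 389.9 and 439 in WT cells with db-cAMP, and 339.7 and 539 in WT cells with vehicle. Cd8a, the chain that defines CD8 T cells, lay between 110.3 and 149.7 on all 8 arrays and passed the test in none of the 5 comparisons. Cd8b1, the other CD8 chain, had signals of 150.0 and 139 in KO cells with db-cAMP, 176 and 205 in KO cells with vehicle, 256 and 291 in WT cells with db-cAMP, and 362 and 367 in WT cells with vehicle. It was thus lower in KO than in WT cells under both treatments without overlap, by a log2 change of -0.89 (SE 0.21, adjusted p 0.00514) under db-cAMP and -0.92 (SE 0.21, adjusted p 0.0121) under vehicle. The vehicle call was lost without KO replicate 1 (adjusted p 0.0911), WT replicate 1 (0.0597) or WT replicate 2 (0.0641). With db-cAMP over vehicle, the log2 change of Cd8b1 was -0.38 (SE 0.21, adjusted p 0.34) in KO cells. In WT cells it was -0.41 (SE 0.21, adjusted p 0.156). Whether CD8 T cells had a part in the signals of the granule genes was not tested.

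Ncr1, which defines NK cells, had signals of 4.57 to 35.7, below the median of every array. Of 12 measured NK cell markers, 8 were above the background percentile on no array, and only Eomes and Il2rb, which activated T cells also express, were above it on all. The summed signal of the other 10 NK markers, a set chosen after its values were seen, was 244 to 331 in KO cells with db-cAMP, 255 to 441 in KO cells with vehicle, 541 to 584 in WT cells with db-cAMP and 369.6 to 458 in WT cells with vehicle. Much of the gap between the 2 WT groups was Cd7. It had signals of 102 and 208 in WT cells with db-cAMP against 3.79 and 52.1 in WT cells with vehicle. Of the 2 CD8 markers, Cd8b1 was above the background percentile on all arrays. Cd8a was above it on all but replicate 1 of KO cells with vehicle (114 against 123). The 2 CD8 markers summed to 269.8 to 276 in KO cells with db-cAMP, 290.4 to 335 in KO cells with vehicle, 367 to 433 in WT cells with db-cAMP, and 499 to 516 in WT cells with vehicle. Mast cells also store granzyme B and serglycin, and of 9 measured mast cell and basophil markers 0 were above the percentile on all arrays and 9 on none. Of the B cell, macrophage and neutrophil, and dendritic cell markers, 2 of 9 (Ms4a1 and Fcer2a), 1 of 13 (Lyz2) and 1 of 9 (Bst2) were above it on all. Between KO and WT cells under db-cAMP, 15.9% of all genes tested were higher and 13.3% lower. Of 8 tested B cell markers 2 fell in that comparison, Cd79b (log2 change -1.28, adjusted p 0.0288) and Ms4a1 (-0.76, adjusted p 0.0345). Of 7 tested NK cell markers, Cd7 (-3.06, adjusted p 0.0364) and Eomes (-1.12, adjusted p 3.17e-04) fell, and of 7 tested macrophage and neutrophil markers Elane fell (-1.36, adjusted p 0.0482) and Lyz1 rose (1.03, adjusted p 0.0236). Cd7 and Elane were dim. With db-cAMP, Cd7 had signals of 14.2 and 11.2 in KO cells and 102 and 208 in WT cells. Only in WT cells with db-cAMP was Cd7 above the array median. That group alone let it be tested, so no conclusion is drawn from its call. With db-cAMP, Elane had 54.8 and 51.7 in KO cells and 109 and 194 in WT cells. Under vehicle 0 markers of these 3 lists passed, where 10.8% of all genes tested did. In such bulk samples, fewer cells of a type and less RNA per cell cannot be told apart, and the part of other cell types in the values that follow was not tested.

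Ifngr1 itself, the disrupted gene, had signals of 1056 and 1272 in KO cells with db-cAMP, 439 and 378 in KO cells with vehicle, 7319 and 8201 in WT cells with db-cAMP, and 905 and 873 in WT cells with vehicle. No label places its probe set inside or outside the disrupted part, so this does not check the genotype. Gbp2, a GTPase gene induced by IFN-gamma, had 606 and 678 in KO cells with db-cAMP and 480.3 and 384 in KO cells with vehicle, against 24289.6 and 25753 in WT cells with db-cAMP and 6960.1 and 8103 in WT cells with vehicle. The written descriptions of the 4 KO samples call the cells WT, against their titles, source names and genotype entries, and the titles were followed. The poly-A control probe sets had mean signals of 4159 to 5834 on the KO arrays and 1441 to 2148 on the WT arrays. The hybridization controls had 12290 to 13690 on the KO arrays and 15540 to 22770 on the WT arrays. The ratio of 3′ to 5′ probe sets was 1.344 to 1.444 on the KO arrays and 1.461 to 1.724 on the WT arrays for Actb, and 0.7789 to 0.8502 on the KO arrays and 0.7337 to 0.7692 on the WT arrays for Gapdh. The 18S ribosomal RNA signal moved with the treatment, at 31400 to 38700 with db-cAMP and 24550 to 26850 with vehicle in KO cells, and 36890 to 37630 with db-cAMP and 25510 to 28570 with vehicle in WT cells. The brightest probe set reached signals of 65165 to 72626 on the KO arrays and 86708 to 131247 on the WT arrays. None of these measures overlapped between the groups named. All but the 18S signal separated the KO from the WT arrays. Genotype and array handling therefore cannot be told apart in any comparison of KO with WT cells below. The part of the 18S signal in the treatment differences was not tested.

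In KO cells, db-cAMP changed 2 of the 7 genes, Serpinb9 and Klrd1, which rose. In WT cells it changed 4, of which Serpinb9, Gzmb and Klrd1 rose and Nkg7 fell, while Gzma, Prf1 and Srgn did not pass the test. KO cells had less Gzmb and Serpinb9 than WT cells under db-cAMP, and the effect of db-cAMP on both genes was smaller in KO than in WT cells in a direct test of that difference. All changes are log2 ratios from limma with Benjamini-Hochberg adjustment over 12091 genes, passed where the adjusted p was below 0.05.

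These counts stand against broad changes on the arrays. With db-cAMP in KO cells, 2 of 7 members rose and 0 fell, where 8.38% of all genes tested passed, 4.7% higher and 3.68% lower. The median log2 change of the members was 0.03, against -0.0036 for all genes. With db-cAMP in WT cells, 3 rose and 1 fell, where 35% of all genes passed, 16.4% higher and 18.6% lower, and the medians were 0.83 for the members and 0.01 for all genes. Between KO and WT cells, 0 members were higher and 3 were lower under each treatment. All genes passed at 29.2% under db-cAMP (15.9% higher and 13.3% lower) and at 10.8% under vehicle (5.06% higher and 5.78% lower). The members' medians in those comparisons were -0.50 under db-cAMP and -0.33 under vehicle, against -0.0046 and -0.0052 for all genes. For the difference between the 2 genotypes' responses, 0 members were higher and 2 lower, where 11.8% of all genes passed, 6.7% higher and 5.09% lower, with medians of -0.69 and 0.0053.

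With every probe set tested on its own, 2 of the 9 rose and 0 fell with db-cAMP in KO cells (4.79% of all probe sets passed in either direction) and 4 rose and 1 fell in WT cells (26%). Between KO and WT cells 0 were higher and 4 lower under db-cAMP (24.2%), and 0 higher and 4 lower under vehicle (10.3%), and 2 differed in response (6.83%). The balance of calls over all genes depended on the scaling. With the 75th percentile of all arrays made equal, KO cells had 1371 genes higher and 2243 lower than WT cells under db-cAMP, in place of 1926 and 1603, and 402 higher and 1177 lower under vehicle, in place of 612 and 699. The median of all genes then stood at -0.125 under db-cAMP. For db-cAMP in KO cells the same scaling gave 447 higher and 585 lower, in place of 568 and 445.

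**Figure D2:**
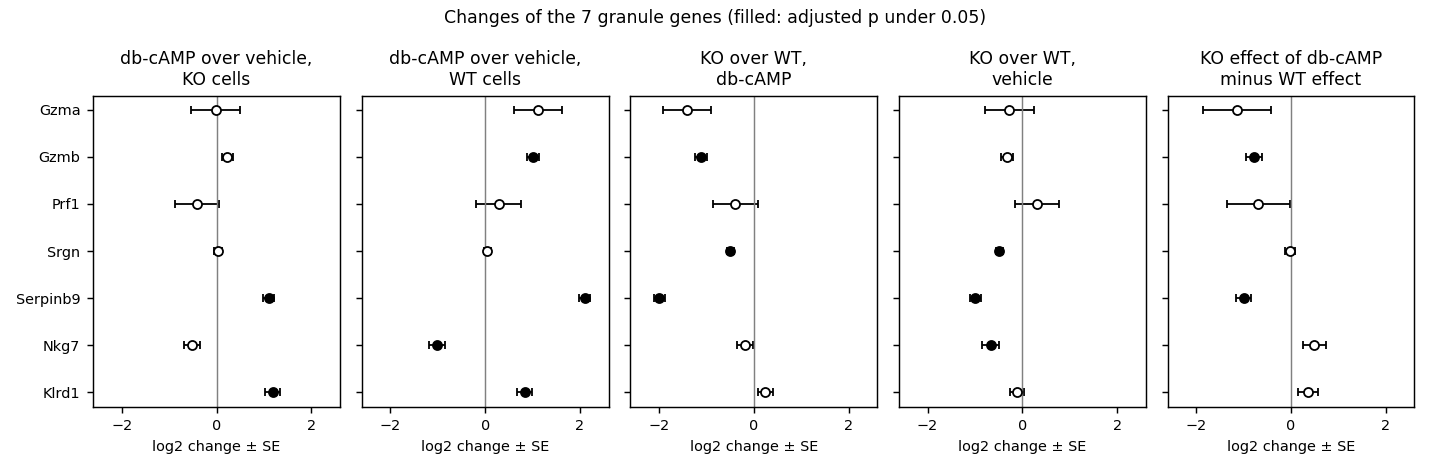
Log2 change (± SE) of the 7 granule genes in the 5 comparisons, filled where the adjusted p was below 0.05. Serpinb9 is filled in all 5 panels, Gzmb in 3, Nkg7 and Klrd1 in 2 each, Srgn in 2 (neither of which holds under quantile normalization), and Gzma and Prf1 in none.

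Gzmb encodes granzyme B, the protease of the granule that cuts after aspartate and activates caspases. Its signals were 610.5 and 639 in KO cells with db-cAMP, 576 and 493 in KO cells with vehicle, 1359.7 and 1354 in WT cells with db-cAMP, and 651 and 692 in WT cells with vehicle. The WT arrays with db-cAMP stood alone, at a mean of 1357 ± 4.34 (SD, n = 2). The other 3 groups were much closer together and did not overlap, with WT cells with vehicle highest and KO cells with vehicle lowest. In KO cells the log2 change of Gzmb with db-cAMP was 0.23 (SE 0.12, adjusted p 0.324) and did not pass. In WT cells db-cAMP raised it 2.01-fold (log2 change 1.01, SE 0.12, adjusted p 1.74e-05). KO cells had 2.16-fold less than WT cells under db-cAMP (log2 change -1.11, SE 0.12, adjusted p 1.34e-05), and under vehicle the log2 change was -0.33 (SE 0.12, adjusted p 0.108). The response of KO cells was smaller than that of WT cells by 0.78 on the log2 scale (-0.78, SE 0.17, adjusted p 0.00887). That difference did not pass when limma's variance was not allowed to depend on intensity (adjusted p 0.0676).

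Since Gzmb responded to db-cAMP and depended on genotype, its upstream sequence is shown, the 250 bases before the annotated start in RefSeq's GRCm38.p6 annotation (chr14:56262335-56262584, minus strand, printed 5′ to 3′). Capitals mark matches to RUNX (TGTGGT), AP-1 (TGANTCA) and T-box (TCACAC) letters.
Gzmb: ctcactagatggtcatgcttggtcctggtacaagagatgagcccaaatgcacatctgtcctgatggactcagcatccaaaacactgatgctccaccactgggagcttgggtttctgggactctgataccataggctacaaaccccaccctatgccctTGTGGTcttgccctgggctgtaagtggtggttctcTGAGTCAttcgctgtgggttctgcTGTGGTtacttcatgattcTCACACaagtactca
The marked matches are RUNX at -93 and -34, AP-1 at -58 and T-box at -15, counted back from the start. Of the 32851 promoters in the table, 14% held the RUNX letters in the same 250 upstream bases, 6.75% the AP-1 letters and 12.3% the T-box letters, on either strand. The table's whole windows reach 50 bases past the start. A cyclic AMP response element core (TGACG, in 20.8% of windows) and a GAS match (TTCNNNGAA, in 8.3%), the form bound by STAT proteins, lay after the start, at positions 6 to 10 and 38 to 46. The full cyclic AMP response element (TGACGTCA, in 1.79% of windows) was not in the window. Such matches describe letters only.

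Gzma encodes granzyme A, a protease of the granule that cuts after basic residues. Its signals were 40.4 and 58.7 in KO cells with db-cAMP, 63.9 and 38.2 in KO cells with vehicle, 155 and 124 in WT cells with db-cAMP, and 44.6 and 83.1 in WT cells with vehicle. The 2 WT arrays with db-cAMP were the highest and the only ones above the background percentile, and the other 3 groups overlapped. The log2 change with db-cAMP in KO cells was -0.02 (SE 0.51, adjusted p 0.99). In WT cells it was 1.11 (SE 0.51, adjusted p 0.113). KO against WT cells under db-cAMP gave -1.41 (SE 0.51, adjusted p 0.0538), which passed in 5 of 18 alternative settings, with adjusted p from 0.0345 to 0.238. The difference in response was -1.13 (SE 0.72, adjusted p 0.382). Gzma was above the array median on only 4 arrays and above the background percentile on 2, so its folds rest on dim values.

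Of the other granzymes, 8 were measured (Gzmc, Gzmd, Gzme, Gzmf, Gzmg, Gzmk, Gzmm and Gzmn), and only Gzmk and Gzmm passed the filter on dim genes. Neither passed the test in any of the 5 comparisons. Gzmk had signals of 48.8 to 152 over the 8 arrays, and Gzmm had 32.4 to 136.

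Prf1 encodes perforin, the pore former. Its probe set 1451862_a_at had signals of 86.0 and 48.3 in KO cells with db-cAMP, 77.1 and 99.7 in KO cells with vehicle, 65.4 and 113 in WT cells with db-cAMP, and 70.9 and 69.0 in WT cells with vehicle. Its probe set 1450335_at had 58.7 and 118 in KO cells with db-cAMP, 64.9 and 72.4 in KO cells with vehicle, 68.1 and 64.5 in WT cells with db-cAMP, and 85.5 and 79.5 in WT cells with vehicle. The groups overlapped in most pairs, and the 2 probe sets put them in different orders. In the fit of every probe set, the log2 change with db-cAMP in KO cells was -0.41 (SE 0.46, adjusted p 0.759) for the first and 0.27 (SE 0.45, adjusted p 0.854) for the second. In WT cells it was 0.28 (SE 0.46, adjusted p 0.709) for the first and -0.29 (SE 0.45, adjusted p 0.692) for the second. Neither probe set passed in any comparison, and with standard errors this wide a moderate change would not have been detectable.

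Srgn encodes serglycin, the proteoglycan core protein that holds granzymes and perforin in the granule and that many blood cells make. Its signals were 36093 and 34508 in KO cells with db-cAMP, 33192 and 36012 in KO cells with vehicle, 47756 and 52062 in WT cells with db-cAMP, and 46507 and 50273 in WT cells with vehicle. The 4 KO arrays all lay below the 4 WT arrays, and the treatments overlapped within each genotype. The log2 change with db-cAMP was 0.03 (SE 0.07, adjusted p 0.894) in KO cells and 0.04 (SE 0.07, adjusted p 0.702) in WT cells. KO against WT cells gave -0.50 (SE 0.07, adjusted p 2.16e-04) under db-cAMP and -0.48 (SE 0.07, adjusted p 0.0011) under vehicle, a 1.41-fold and a 1.40-fold lower signal, but neither difference held under quantile normalization. The difference under vehicle was also lost without the intensity trend (adjusted p 0.0858).

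The brightest genes as a group were lower on the KO arrays. Srgn ranked 57 by level among the genes tested, and of the 100 brightest genes 90 were lower in KO than in WT cells under db-cAMP and 86 under vehicle, 0 higher in either, with median log2 changes of -0.615 and -0.476. Under quantile normalization, Srgn differed by 0.04 under db-cAMP (adjusted p 0.604) and by -0.04 under vehicle (adjusted p 0.658). Under the same normalization the db-cAMP effect in WT cells was -0.15 (adjusted p 0.0216), which has the opposite sign to the value above.

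**Figure D3:**
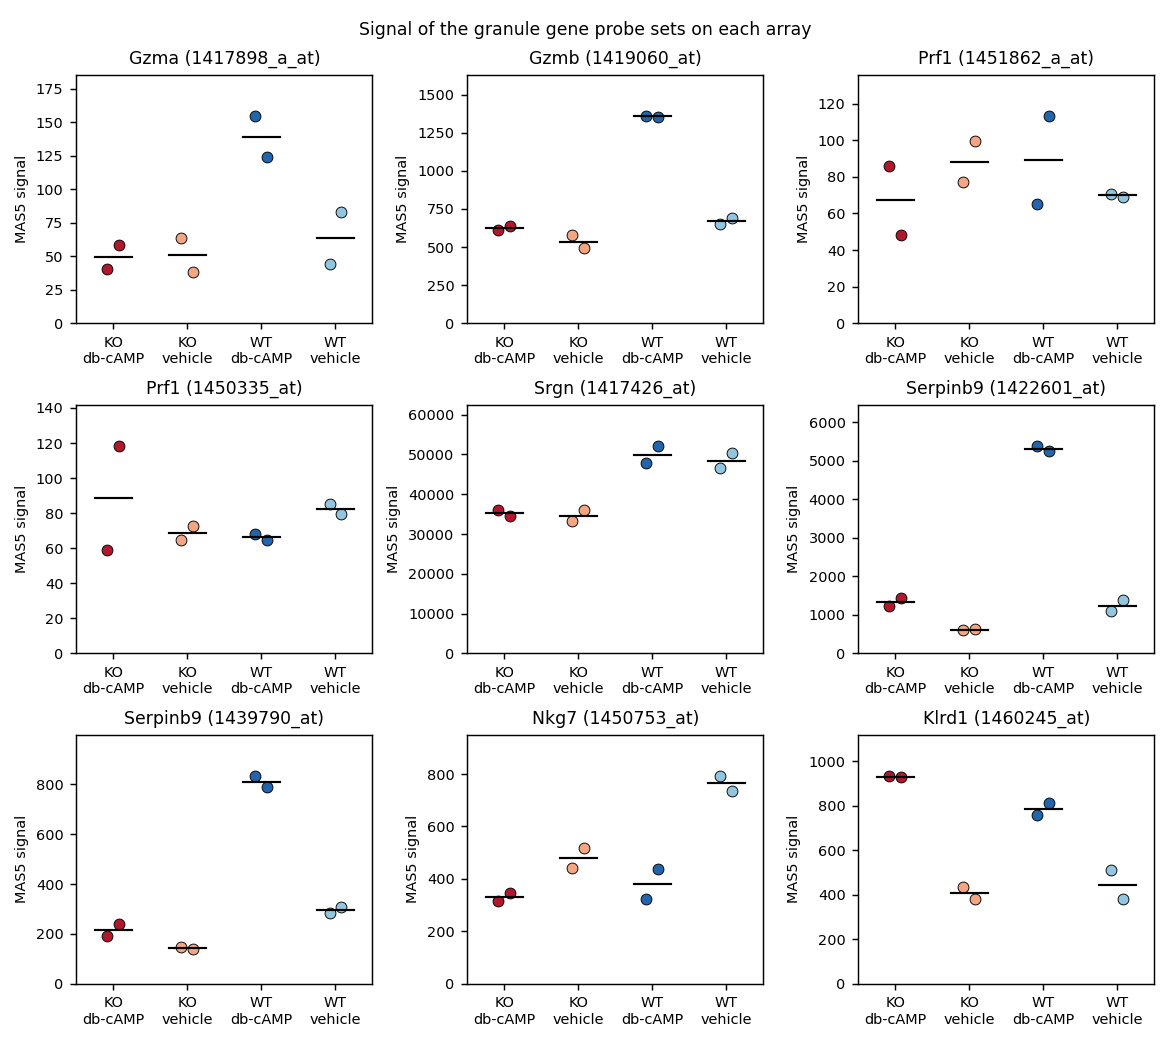
Signal of each granule gene probe set on the 8 arrays (points), with the mean of each group of 2 arrays (line), on linear axes that start at 0. Gzmb and both Serpinb9 probe sets are highest in WT cells with db-cAMP, Klrd1 is high with db-cAMP in both genotypes, Nkg7 is highest in WT cells with vehicle, and Srgn is lower on the 4 KO arrays at this scaling, though not under quantile normalization.

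Serpinb9 encodes the cytosolic serpin that blocks granzyme B and protects the killer cell from its own protease. Its probe set 1422601_at had signals of 1220.3 and 1448 in KO cells with db-cAMP, 599 and 639 in KO cells with vehicle, 5375 and 5243 in WT cells with db-cAMP, and 1106 and 1378 in WT cells with vehicle. The WT arrays with db-cAMP stood far above all others and the KO arrays with vehicle below all others. KO cells with db-cAMP and WT cells with vehicle overlapped. db-cAMP raised Serpinb9 2.14-fold in KO cells (log2 change 1.10, SE 0.12, adjusted p 6e-05) and 4.28-fold in WT cells (log2 change 2.10, SE 0.12, adjusted p 1.51e-08).

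KO cells had 3.98-fold less Serpinb9 than WT cells under db-cAMP (log2 change -1.99, SE 0.12, adjusted p 6.83e-08) and 1.99-fold less under vehicle (log2 change -0.99, SE 0.12, adjusted p 1.30e-04). The response of KO cells was smaller on the log2 scale (-1.002, SE 0.17, adjusted p 0.00156), a difference that did not pass without the intensity trend (adjusted p 0.0757). The dimmer probe set, 1439790_at, had signals of 191 and 239.6 in KO cells with db-cAMP, 149 and 139 in KO cells with vehicle, 832 and 790.5 in WT cells with db-cAMP, and 285 and 308 in WT cells with vehicle. It kept the order, except that both WT arrays with vehicle lay above the KO arrays with db-cAMP. In the fit of every probe set, its log2 change with db-cAMP in KO cells was 0.56 (SE 0.18, adjusted p 0.121), and in WT cells it rose (log2 change 1.44, SE 0.18, adjusted p 6.18e-05). Its difference in response was -0.88 (SE 0.26, adjusted p 0.0661), so KO response and difference in response passed at 1 of the 2 probe sets.

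The upstream sequence of Serpinb9 is set beside that of Gzmb because both genes were highest in WT cells with db-cAMP (chr13:33004291-33004540, plus strand, GRCm38.p6, 250 bases 5′ to 3′). It is in lower case throughout because the RUNX, AP-1, T-box, GAS and cyclic AMP response element letters have no match in it.
Serpinb9: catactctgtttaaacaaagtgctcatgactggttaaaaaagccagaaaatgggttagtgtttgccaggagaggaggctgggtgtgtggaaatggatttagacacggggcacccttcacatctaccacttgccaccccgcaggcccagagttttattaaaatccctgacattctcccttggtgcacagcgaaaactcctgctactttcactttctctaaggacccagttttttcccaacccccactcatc
A RUNX match lay after the start, at positions 11 to 16. The shorter NFAT core letters (GGAAA, in 55.6% of upstream parts) matched at -163 and -20 in the upstream part. The 2 genes thus shared no marked match upstream of their starts.

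Nkg7 encodes a membrane protein of the granule that in mice takes part in granule release. Its signals were 314 and 346 in KO cells with db-cAMP, 439.8 and 518 in KO cells with vehicle, 323 and 436 in WT cells with db-cAMP, and 791 and 737 in WT cells with vehicle. The WT arrays with vehicle stood above all others, the KO arrays with vehicle came next, and the 2 groups with db-cAMP overlapped each other. In KO cells the log2 change of Nkg7 with db-cAMP was -0.53 (SE 0.17, adjusted p 0.08). In WT cells db-cAMP lowered it 2.02-fold (log2 change -1.01, SE 0.17, adjusted p 3.42e-04), and the difference in response was 0.49 (SE 0.24, adjusted p 0.24).

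Under vehicle KO cells had less Nkg7 than WT cells (log2 change -0.67, SE 0.17, adjusted p 0.022). That call was lost without any 1 of the 4 vehicle arrays, with adjusted p of 0.164 without KO replicate 1, 0.0504 without KO replicate 2, 0.117 without WT replicate 1 and 0.0681 without WT replicate 2, and also without the intensity trend (adjusted p 0.128). Under db-cAMP the log2 change was -0.18 (SE 0.17, adjusted p 0.469). The upstream sequence of Nkg7, the member that moved the other way, lies at chr7:43436888-43437137 (plus strand, GRCm38.p6), with capitals on a GAS, a RUNX and a T-box match.
Nkg7: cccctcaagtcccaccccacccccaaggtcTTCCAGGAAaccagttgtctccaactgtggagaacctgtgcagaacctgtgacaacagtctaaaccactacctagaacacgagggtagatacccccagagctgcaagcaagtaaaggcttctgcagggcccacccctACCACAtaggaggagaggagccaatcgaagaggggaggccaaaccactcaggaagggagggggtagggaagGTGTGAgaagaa
The GAS match at -220 overlaps an NFAT core match at -215, and the RUNX and T-box matches at -83 and -12 read on the opposite strand. Gzmb and Nkg7 thus both held RUNX and T-box letters, and a T-box match lay within 20 bases of the start in both (-15 and -12). For the members as a whole, 6 of 7 had a promoter entry in the table, Srgn with 2, and none held the full cyclic AMP response element. Upstream of the start, the 5-base core of that element matched in Prf1 at -92 and in Srgn at -72, and RUNX letters matched in Gzma at -50, Prf1 at -130 and Srgn at -202.

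Klrd1 encodes CD94, a lectin-like receptor that pairs with NKG2 chains and recognizes a non-classical MHC class I molecule. Its signals were 931 and 928 in KO cells with db-cAMP, 436 and 379 in KO cells with vehicle, 760.0 and 811 in WT cells with db-cAMP, and 509 and 379 in WT cells with vehicle. All 4 arrays with db-cAMP lay above all 4 arrays with vehicle, and the genotypes overlapped under vehicle. The log2 change with db-cAMP was 1.18 (SE 0.15, adjusted p 2.58e-04) in KO cells and 0.83 (SE 0.15, adjusted p 7.19e-04) in WT cells, 2.27-fold and 1.78-fold. The difference in response was 0.35 (SE 0.21, adjusted p 0.358). KO against WT cells gave 0.24 (SE 0.15, adjusted p 0.27) under db-cAMP and -0.11 (SE 0.15, adjusted p 0.748) under vehicle. Both calls with db-cAMP held in each of the 19 alternative settings, with adjusted p of at most 0.0425 in KO cells and 0.0171 in WT cells.

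Of the wider NK receptor family and its adaptors, 18 of 27 listed genes were measured and 10 tested. With db-cAMP in KO cells 0 of 10 passed, and in WT cells 1 rose (Klrc1, the NKG2A partner of CD94) and 2 fell (Cd160 and Slamf7). Of all genes tested, 8.38% passed in KO cells and 35% in WT cells. Klrc1 had signals of 255 and 251 in KO cells with db-cAMP, 130.1 and 149 in KO cells with vehicle, 136 and 212 in WT cells with db-cAMP, and 75.03 and 63.8 in WT cells with vehicle. Its log2 change with db-cAMP was 0.84 (SE 0.30, adjusted p 0.116) in KO cells and 1.23 (SE 0.30, adjusted p 0.00542) in WT cells. The WT call was lost with the mean of its probe sets (adjusted p 0.158) and without WT replicate 2 with db-cAMP (adjusted p 0.0555).

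The machinery around the granule was read from lists of related genes, without the 7 members. For these lists, the share of all genes that passed with db-cAMP was 8.38% in KO cells (4.7% higher, 3.68% lower). In WT cells the share was 35% (16.4% higher, 18.6% lower). Between KO and WT cells it was 29.2% under db-cAMP and 10.8% under vehicle. Of 14 tested genes for granule contents, processing and protection, 1 rose and 2 fell with db-cAMP in KO cells, and 4 rose and 4 fell in WT cells. The list median was 0.06 in KO cells against -0.0036 for all genes, and 0.14 in WT cells against 0.01. Serpinb6b, a cytosolic serpin, had signals of 1476 and 1547 in KO cells with db-cAMP, 759.9 and 675 in KO cells with vehicle, 4242 and 4642 in WT cells with db-cAMP, and 877 and 1237 in WT cells with vehicle. It rose in both genotypes, by 1.07 (SE 0.14, adjusted p 2.47e-04) in KO cells and 2.08 (SE 0.14, adjusted p 6.83e-08) in WT cells. Its response differed between genotypes by -1.01 (SE 0.19, adjusted p 0.00398), but not without the intensity trend (adjusted p 0.108), where its rise in KO cells was also lost (adjusted p 0.065).

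Cst7, the cystatin F gene, whose product inhibits the cathepsins that activate granzymes, fell by 0.70 (SE 0.09, adjusted p 3.66e-04) in KO cells and by 1.26 (SE 0.09, adjusted p 2.29e-07) in WT cells on the log2 scale. Gusb, a lysosomal glucuronidase, fell by 0.36 in KO cells (adjusted p 0.0331) and by 1.13 in WT cells (adjusted p 7.61e-07), and the KO call was lost without any 1 of the 4 KO arrays (adjusted p 0.0582 to 0.234). M6pr, the mannose 6-phosphate receptor that sorts lysosomal enzymes, had a log2 change of -0.13 in KO cells (adjusted p 0.304) and fell by 0.72 in WT cells (adjusted p 2.36e-06). Between KO and WT cells, 3 of the 14 were higher and 4 lower under db-cAMP, and 0 higher and 3 lower under vehicle.

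Of 19 tested genes for granule transport and exocytosis, 3 rose and 0 fell with db-cAMP in KO cells, and 9 rose and 1 fell in WT cells, with list medians of 0.09 in KO cells and 0.285 in WT cells. The shares of all genes that passed were 8.38% and 35%. Stx11, the syntaxin of granule fusion, rose by 0.70 (SE 0.10, adjusted p 4.48e-04) in KO cells and 1.17 (SE 0.10, adjusted p 5.67e-07) in WT cells, the KO call being lost without the trend (adjusted p 0.0758). Ap3b1, a subunit of an adaptor that sorts cargo to lysosomes, rose by 0.49 (SE 0.11, adjusted p 0.014) in KO cells and 1.24 (SE 0.11, adjusted p 1.24e-06) in WT cells. The KO call for Ap3b1 was lost without the intensity trend (adjusted p 0.183). It was also lost without replicate 2 of the KO vehicle arrays (log2 change 0.32). The same held without replicate 1 (0.54) or replicate 2 (0.45) of the KO arrays with db-cAMP. Sytl2, a Rab27 effector, rose by 1.15 (SE 0.13, adjusted p 9.64e-05) in KO cells and 0.43 (SE 0.13, adjusted p 0.0214) in WT cells, with signals of 1046 and 1054 in KO cells with db-cAMP against 424 and 436 in WT cells with db-cAMP. Lyst, a regulator of lysosome size, was the gene that fell in WT cells (-0.64, SE 0.17, adjusted p 0.00788). Between KO and WT cells, 4 were higher and 5 lower under db-cAMP, and 3 higher and 1 lower under vehicle.

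Death ligands form a route to target cell killing that does not use perforin or granzymes. Of 9 tested genes listed with such ligands and receptors, Ltb among them, 0 rose and 4 fell with db-cAMP in KO cells and 2 rose and 4 fell in WT cells. The shares of all genes that passed were 8.38% in KO cells and 35% in WT cells. Fasl, the Fas ligand gene, had signals of 1996 and 2069 in KO cells with db-cAMP, 1876 and 2124 in KO cells with vehicle, 5346 and 5354 in WT cells with db-cAMP, and 2258 and 2148 in WT cells with vehicle. As for Gzmb, the WT arrays with db-cAMP stood alone. Fasl had a log2 change of 0.03 with db-cAMP in KO cells (SE 0.08, adjusted p 0.919), rose by 1.28 in WT cells (SE 0.08, adjusted p 7.08e-08), and differed in response by -1.25 (SE 0.12, adjusted p 2.98e-05). Tnf fell by 2.06 in KO cells (adjusted p 4.10e-04) and by 2.66 in WT cells (adjusted p 6.03e-06), while Lta fell by 1.70 in KO cells (adjusted p 1.96e-06) and fell by 2.80 in WT cells (adjusted p 1.97e-09). Tnfsf14 fell by 2.32 in KO cells (adjusted p 5.54e-04) and fell by 3.73 in WT cells (adjusted p 1.16e-06). Without the intensity trend the KO call for Tnf was lost (adjusted p 0.0843), and with the mean of its probe sets that for Tnfsf14 (adjusted p 0.294).

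**Figure D4:**
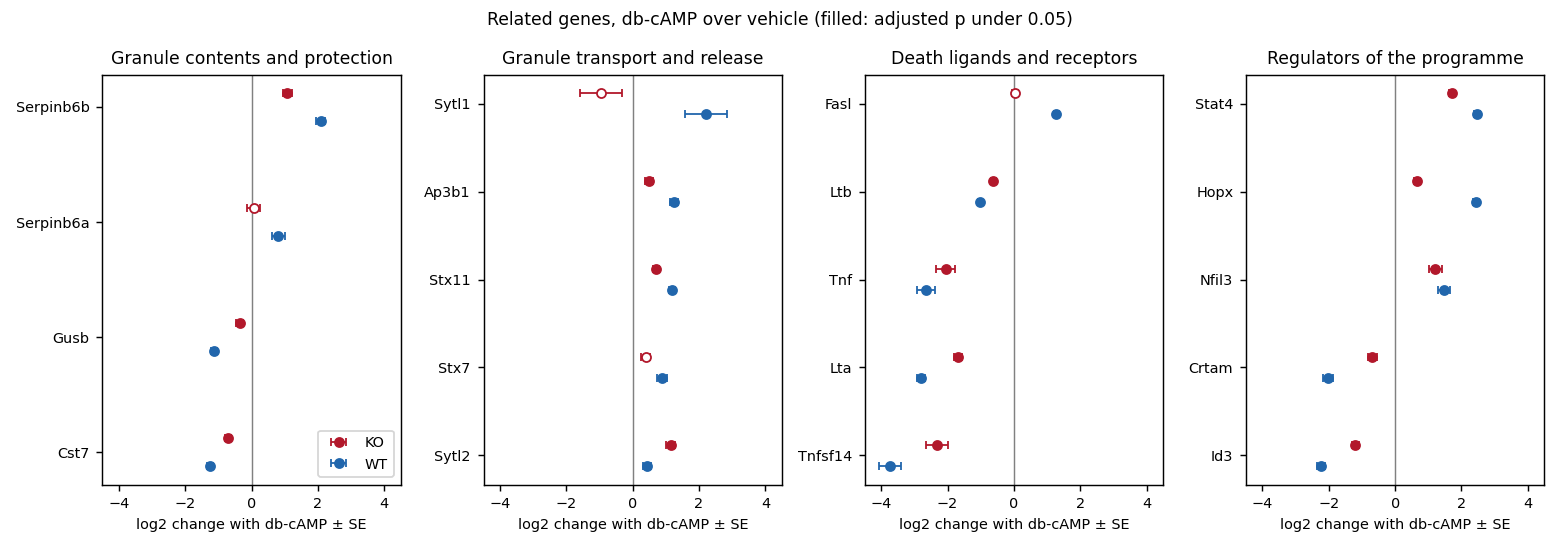
Log2 change (± SE) with db-cAMP over vehicle in KO cells (red) and WT cells (blue) for related genes, up to 4 per list and genotype by size among those that passed, filled where the adjusted p was below 0.05. Serpinb6b, Stx11, Stat4 and Hopx are right of 0 in both genotypes, Cst7, Tnf, Lta and Id3 left of 0 in both, and Fasl is right of 0 and filled in WT cells alone.

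Of 25 tested genes listed as regulators of the cytotoxic programme, which include the surface molecule Crtam beside transcription factors, 7 rose and 4 fell with db-cAMP in KO cells, and 12 rose and 7 fell in WT cells. The shares of all genes that passed were 8.38% in KO cells and 35% in WT cells. Eomes, the T-box factor that in CD8 T cells drives Gzmb and Prf1, had signals of 382 and 509.6 in KO cells with db-cAMP, 368 and 362 in KO cells with vehicle, 1086 and 854 in WT cells with db-cAMP, and 341 and 294 in WT cells with vehicle. It had a log2 change of 0.27 with db-cAMP in KO cells (SE 0.18, adjusted p 0.446), rose by 1.59 in WT cells (SE 0.18, adjusted p 9.04e-06), and differed in response by -1.32 (SE 0.25, adjusted p 0.00366). Runx3, a factor of the CD8 lineage, had a log2 change of 0.27 in KO cells (SE 0.17, adjusted p 0.429) and 1.33 in WT cells (SE 0.17, adjusted p 3.22e-05). The WT call for Runx3 was lost with the mean of its probe sets (adjusted p 0.0787).

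Tbx21, which encodes T-bet, the other T-box factor, had signals of 112 and 124 in KO cells with db-cAMP, 149 and 132 in KO cells with vehicle, 1343 and 1200.7 in WT cells with db-cAMP, and 1414 and 1299.9 in WT cells with vehicle. It separated the genotypes, with log2 changes between KO and WT cells of -3.37 under db-cAMP (SE 0.16, adjusted p 6.99e-09) and -3.22 under vehicle (SE 0.16, adjusted p 2.61e-08). With db-cAMP its log2 change was -0.24 in KO cells (adjusted p 0.43) and -0.09 in WT cells (adjusted p 0.696).

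Stat4, which carries the IL-12 signal, rose by 1.70 (SE 0.08, adjusted p 2.45e-08) in KO cells and 2.47 (SE 0.08, adjusted p 1.42e-10) in WT cells. Hopx, a homeodomain-only protein of effector T cells, rose by 0.66 (SE 0.08, adjusted p 2.34e-04) in KO cells and 2.43 (SE 0.08, adjusted p 2.60e-10) in WT cells. Crtam, a surface molecule linked to cytotoxic CD4 T cells, fell by 0.69 (SE 0.14, adjusted p 0.00718) in KO cells and 2.02 (SE 0.14, adjusted p 1.01e-07) in WT cells. Its KO call was lost without the intensity trend (adjusted p 0.104). It was also lost without either replicate 2 of KO cells (log2 change -0.61 without the vehicle array and -0.52 without the db-cAMP array). Prdm1, which encodes Blimp-1, and Zbtb7b, which encodes the CD4 lineage factor ThPOK, passed in none of the 5 comparisons. Prdm1 had signals of 38.8 and 119.6 in KO cells with db-cAMP, 67.7 and 128 in KO cells with vehicle, 118 and 112 in WT cells with db-cAMP, and 146 and 126 in WT cells with vehicle. Zbtb7b had 312 and 334 in KO cells with db-cAMP, 398 and 387 in KO cells with vehicle, 340.1 and 413 in WT cells with db-cAMP, and 358 and 346 in WT cells with vehicle.

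Ifng, the cytokine gene whose receptor was disrupted, had signals of 1015 and 1024 in KO cells with db-cAMP, 2209 and 2469 in KO cells with vehicle, 521 and 504 in WT cells with db-cAMP, and 1813 and 1369 in WT cells with vehicle. It fell with db-cAMP in both genotypes, by 1.19 in KO cells (SE 0.13, adjusted p 5.55e-05) and 1.61 in WT cells (SE 0.13, adjusted p 3.60e-07), while Gzmb rose in WT cells.

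The genes most like each member were found by Pearson r of log2 values over the 8 arrays, as a description of arrays that fall into 4 groups. For Gzmb they were Nptn (r 0.995), Ciao2b (0.994) and Aebp2 (0.994), and for Serpinb9 Nsmf (0.996), Usp18 (0.993) and Dpp4 (0.993). For Nkg7 they were Tmtc4 (0.987), Pfdn2 (0.98) and Il15ra (0.978), and for Klrd1 Rbl2 (0.973), Robo1 (0.968) and Cblb (0.965). For Srgn they were Ran (0.996), Srsf3 (0.996) and Mif (0.994). The dim members had Pafah1b3 (0.973), Mllt6 (0.973) and Epcam (0.972) for Gzma, and Itga9 (0.945), Hmox1 (0.94) and Sync (0.937) for Prf1. No member was among the 3 genes most like another member. Between members, r ran from 0.972 for Gzmb with Serpinb9 and 0.91 for Gzma with Gzmb down to -0.752 for Klrd1 with Nkg7.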

How the data were processed

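Total RNA of 8 samples was labelled as biotinylated cRNA and hybridised to Affymetrix arrays, per the labels' protocols. The deposited intensity values are linear MAS5 signals per the submitters' processing notes, and their trimmed mean was 499.6 to 499.8 on every array. No detection call, scan date or genome build is given in the sources used here. Sequencing depth has no counterpart here: precision depends on the number of arrays.

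Of 45101 probe sets, 64 were controls, 34945 had 1 gene symbol, 932 several and 9160 none in the platform annotation, which can be old. The 5.48 added to each signal before taking log2 is the 10th percentile over the whole table, and folds of dim genes are understated. The brightest probe set stood for a gene, and genes above the array median on at least 2 arrays were kept, 12091 of 18193. limma 3.58.1 in R 4.3.3 fitted 1 term per group to all 8 arrays (4 residual degrees of freedom, 9 prior) with an intensity trend and Benjamini-Hochberg adjustment. A second fit took 26527 probe sets one by one. Promoter sequences come from RefSeq (GRCm38.p6).

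The members, the related gene lists and the marker lists were chosen with earlier results of these data known. Named beside the members were up to 4 changed genes per list by size of change, a set of 13 named whatever their values (among them Ifngr1, Tbx21, Eomes, Fasl, Cd8a and Ncr1), and the 3 genes most like each member. Genes of these that lie farther from the granule are not described. Tried as alternatives were the value added before log2, the filter, quantile and 75th percentile scaling, the choice of probe set, the variance model, the arrays in the fit, a replicate block and leaving out each array. Replicate numbers recur in every group, but deviations of same-numbered arrays from their group means correlated at -0.0199 to 0.0206, so they were not taken to pair the arrays. Replicates of a group correlated at 0.961 to 0.9765 on log2 values over the 12091 genes tested. Over all probe sets, no pair shared more than 1 identical value.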

Additional observations from a re-analysis of the deposited data

Results flagged for a closer look

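Among the granule genes, the effect of db-cAMP differed between KO and WT cells for Gzmb (KO effect minus WT effect -0.78 on the log2 scale, adjusted p 0.00887) and for Serpinb9 (-1.002, adjusted p 0.00156), by limma's test of that difference. These were 2 of the 7 members, where 11.8% of all genes tested passed (6.7% higher, 5.09% lower). Each passed in 17 of 18 alternative settings and was lost without the intensity trend, at adjusted p 0.0676 for Gzmb and 0.0757 for Serpinb9. The second Serpinb9 probe set did not pass (-0.88, adjusted p 0.0661).

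The related genes below are named because they passed, as did 11.8% of all genes. Of 14 tested genes for granule contents 3 were higher and 2 lower, and of 19 for transport 1 and 4. Of 9 death ligands and receptors 2 were higher and 2 lower, of 25 regulators 5 and 6, and of 10 NK receptors and adaptors 1 and 0. Among the related genes named by the rule, those with a smaller or more negative response in KO than in WT cells had differences of -1.01 for Serpinb6b, -1.25 for Fasl, -1.16 for Tnfrsf1a, -1.32 for Eomes, -1.07 for Runx3, -1.78 for Hopx, -0.75 for Ap3b1, -0.48 for Stx11 and -3.17 for Sytl1. Those with a less negative or more positive response in KO cells were Cst7 (0.56), Gusb (0.77), M6pr (0.58), Sytl2 (0.72), Lta (1.10), Ltb (0.40), Crtam (1.34), Gfi1 (1.42) and Cd160 (1.10 on the log2 scale). The interferon pathway genes Gbp2 (-1.16) and Ifngr1 (-1.62) differed too. Ifngr1 is the disrupted gene, and no label places its probe set inside or outside the disrupted part. Its difference therefore cannot be read as that of an intact gene. Other listed genes that passed the same test, not recomputed under the alternatives, were Irf1 (-1.11), Stat4 (-0.77), Id2 (-0.70), Vamp8 (-0.43), Calr (-0.31), Id3 (1.04), Tox (0.94) and Irf4 (0.37) among the related genes, Cd3e (0.50) and Cd5 (0.44) among the CD4 T cell markers, and Mbp. Of the 22 genes recomputed, the members included, Crtam, Fasl, Gfi1, Hopx and Ifngr1 passed in all 18 settings. Leaving out 1 array ended the call in at least 1 case for Cst7 (highest adjusted p over all settings 0.115), Ltb (0.139), Runx3 (0.318), Stx11 (0.331), Sytl1 (0.155) and Sytl2 (0.0959). Sytl1 had signals of 15.1 to 97.0 over the 8 arrays, within the range of the genes not expected in lymphocytes.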

How the results depend on the processing

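With 2 arrays a group and no detection calls, the dim values of Gzma and Prf1, whose probe sets exceeded the background percentile on at most 2 arrays, are the least certain. The 14 member changes that passed were recomputed under 19 alternatives, which gave 264 values, of which 254 kept direction and call, 9 lost the call and 1 turned. Of 383 values for member changes that had not passed, 354 kept both, 9 passed and 20 turned. For the 101 changes of related genes that passed, 1757 of 1894 values kept both, and 53 changes did so in every setting. Quantile normalization turned Srgn for KO against WT cells under db-cAMP (0.037), for db-cAMP in KO cells (-0.066) and in WT cells (-0.15), and in the difference in response (0.080). An equal 75th percentile gave Srgn -0.019 for db-cAMP in KO cells. With the mean of probe sets Prf1 stood at -0.00506 for db-cAMP in WT cells, and Ap3b1 at 0.043 for KO against WT cells under db-cAMP. Without the intensity trend, 0 members differed in response and 1 member differed between KO and WT cells under vehicle, in place of 2 and 3; the causes were not tested.

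Leaving out 1 array at a time, the log2 change ranged from -0.355 to 0.31 for Gzma with db-cAMP in KO cells, from -0.69 to 0.14 for Gzma and from -0.32 to 0.099 for Klrd1 between KO and WT cells under vehicle, from -0.40 to 0.028 for Nkg7 between KO and WT cells under db-cAMP, and from -0.090 to 0.66 for Prf1 with db-cAMP in WT cells. For Srgn it ranged from -0.029 to 0.088 with db-cAMP in KO cells, from -0.018 to 0.11 in WT cells, and from -0.077 to 0.048 for the difference in response. None of these had passed the test with all arrays.

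Counts over all genes moved most without the intensity trend, to 188 for db-cAMP in KO cells, 251 between KO and WT cells under vehicle and 261 for the difference in response, in place of 1013, 1311 and 1425. With the mean of probe sets they were 497, 794 and 709. Taking every probe set gave 6890 for db-cAMP in WT cells, 6431 for KO against WT cells under db-cAMP and 2733 under vehicle, in place of 4233, 3529 and 1311, with more features tested. Leaving out 1 array gave as few as 446 for db-cAMP in KO cells, 619 between KO and WT cells under vehicle and 894 for the difference in response. With the replicate number as an added term (a replicate block), the Gzmb and Serpinb9 differences in response had adjusted p of 0.0128 and 0.00086, and the number of members called stayed at 2 and 4 for db-cAMP in KO and WT cells, 3 and 3 between genotypes, and 2 for the difference in response. Same-numbered arrays were not shown to be pairs.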
